A study of Danio rerio with 12 samples.

Results

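The knockdown of pbx2 and pbx4 at the 10 somite stage was described here from 6 of the 12 arrays of the series, 3 titled as pbx2 and pbx4 morpholino embryos and 3 titled as control morpholino embryos of that stage. All 15502 probe sets other than the 115 Affymetrix control probe sets were used, of the 15617 in the deposited table. The morphants were zebrafish embryos (Danio rerio) that had received morpholinos against both genes at the 1 to 2 cell stage. The controls had received control morpholinos that the labels describe as pbx2 mutant, with nothing further on their sequence, and were of the same age. No genotype or strain is labelled. The labels give neither the number of embryos per array nor whether clutches or injections were separate, and a p-value here reflects how these arrays vary, which can be technical. The 6 arrays of the 18 somite stage, 3 morphant and 3 control, entered the fit for the estimate of the spread and 1 comparison at the end. They also entered the choice of each gene's brightest probe set.

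Pbx proteins are homeodomain transcription factors of the TALE class. They bind DNA jointly with Hox proteins and with other TALE proteins, Meis and Prep (Pknox), which also bring Pbx into the nucleus. In the zebrafish hindbrain Pbx and Hox together set the identity of the segments called rhombomeres, and Pbx proteins also act in muscle, heart and pancreas. A morpholino is an antisense oligomer that blocks translation or splicing of its target, and it need not lower the target's transcript.

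Values are log2 signals, so that a difference of 1 is a 2-fold change, and differences are given as morphant minus control with the standard error of the model after ±. A probe set was called when its adjusted p in the limma test was under 0.05. Of the 15502 probe sets 1267 were called, or 8.17%, 670 higher (4.32%) and 597 lower (3.85%) in morphants. Most of these differences were small. Their median size was 0.37, 972 were under 0.5, and 34 reached 2-fold. The count was 2040 (13.2%, with 1079 higher and 961 lower) with same-numbered arrays as a block. It was 643, 675, 719 and 773 without morphant array 3, control array 2, morphant array 2 or control array 1. In 483 probe sets the call held without each of the 6 arrays in turn (217 higher, 266 lower), and these are said below to be robust.

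Both target transcripts were higher in morphants. The pbx2 probe set read 10.30, 10.33 and 10.24 in morphants, against 8.40, 8.47 and 8.76 in controls, and pbx4 read 11.60, 11.61 and 11.63 in morphants, against 11.05, 11.28 and 11.17 in controls. No morphant array overlapped a control array in either gene. The difference was 1.75 ± 0.11 for pbx2 (adjusted p = 7.05e-07) and 0.45 ± 0.09 for pbx4 (adjusted p = 0.00606). These values do not measure the proteins.

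The arrays of both groups shared a scale, with medians between 7.29 and 7.31 and correlations between arrays of a group between 0.9954 and 0.9976. Background was judged from 8 probe sets on the array for tag sequences with no counterpart in the embryo, whose means ran from 4.26 to 6.04 in morphants and from 4.18 to 6.13 in controls. A mean at or under the highest tag mean of its group is said here to lie in the tag range. There the size of a difference is limited by background. Of the 4822 probe sets with both means in the range 2.34% were called, against 10.8% of the other 10680. The 3' minus 5' signal of the actin control transcript, a measure of RNA length, was 3.06, 3.10 and 3.15 in morphants and 2.53, 2.61 and 2.67 in controls, without overlap. For the Gapdh control transcript it was -0.57, -0.42 and -0.20 in morphants and -0.55, -0.48 and -0.22 in controls, with overlap. The part of RNA length in the results was not tested.

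Genes with a symbol numbered 8793, each taken from its brightest probe set, and 836 of them were called (9.51%, with 4.98% higher and 4.53% lower, and 3.8% robust). In 2780 of the 8793 genes (31.6%) the morphant and control arrays did not overlap, so a lack of overlap adds no separate support to a call. In the limma test 2191 of the 8793 genes had an unadjusted p under 0.05. Of 1539 genes with several probe sets, 196 had at least 1 probe set called and 44 had all called, and 2 had calls in both directions. With the block 677 of the 8793 genes were higher and 626 lower, so block counts of lists below stand beside a higher background. From the named genes 73 lists were made of families, pathways, cell functions and tissues, and a gene can stand in several. The lists and their members were chosen with earlier results of these data known, so shares describe the lists and do not test them. The classes differed in how many members were called and in which direction. Cell division genes had the highest share, with 36 of 125 called (28.8%), 1 higher and 35 lower. Transcription factor genes followed with 73 of 335 (21.8%), 20 higher and 53 lower. Among the tissue lists 89 of 518 genes were called (17.2%), 22 higher and 67 lower, and among signalling genes 28 of 212 (13.2%), 8 higher and 20 lower. The remaining classes were nearest the background. Structural genes had 13 of 125 called (10.4%), and protein quality, stress and apoptosis genes 23 of 218 (10.6%). Within the latter, the p53 and apoptosis list alone had 9 of 37 called (24.3%). Metabolic, transport and traffic genes had 43 of 456 called (9.43%), and RNA and protein synthesis genes 28 of 405 (6.91%). The 6657 genes in no list had 568 called (8.53%), 348 higher and 220 lower. The median difference was -0.18 over the cell division genes and between -0.07 and 0.03 over the other classes, beside -0.005 over all probe sets. With whole embryos, fewer cells of a type and less RNA per cell cannot be told apart.

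**Figure D1:**
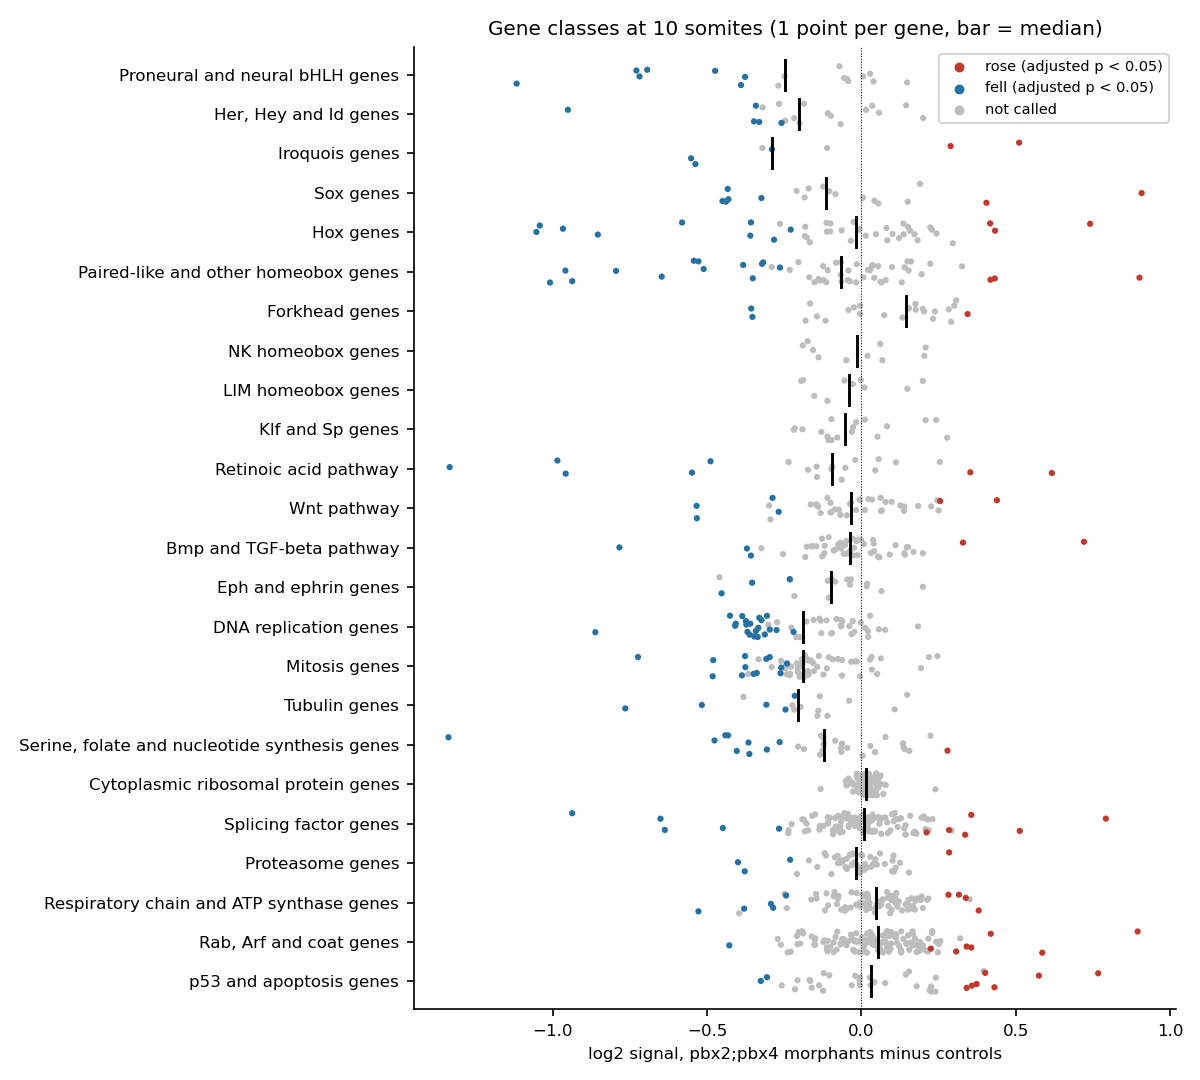
Difference in log2 signal, morphants minus controls (x axis), of each gene of the lists named on the rows (1 point per gene, n = 3 arrays per group), with the list median as a black bar. Proneural, Her and Hey, replication, mitosis and tubulin genes lie mostly left of 0, while ribosomal protein genes cluster around 0 with none called.

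Among the Hox genes, which set position along the body axis, 12 of 42 were called (28.6%), 3 higher and 9 lower. Direction went with the paralog group, the number in the gene's name, which runs from the head end to the tail end. In groups 1 to 4, expressed from the hindbrain back, all 13 measured genes had negative differences (-1.05 to -0.03, median -0.28), and 8 fell, 5 of them robustly. In groups 5 to 8 only hoxb8b of 12 fell (-0.36, adjusted p = 0.0214), a call that was not robust, and the median was 0.13. In groups 9 to 13, the genes of posterior trunk and tail, 3 of 17 rose, all robustly, none fell, and the median was 0.08. The grouping was made with the values known.

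Gene by gene, hoxa3a read 7.10, 7.19 and 7.14 in morphants, against 8.14, 8.22 and 8.23 in controls. The rhombomere 4 gene hoxb1a read 6.50, 6.84 and 6.99 in morphants, against 7.79, 7.83 and 7.84 in controls, and hoxa2b read 7.24, 7.09 and 7.28 in morphants, against 8.03, 8.24 and 8.24 in controls. In all 3 genes every morphant array lay below every control array, and the differences were -1.05 ± 0.07, -1.04 ± 0.11 and -0.97 ± 0.09 (adjusted p = 1.39e-06, 6.01e-05 and 2.43e-05). The difference of hoxb2a was -0.85 ± 0.09, and a second probe set of it gave -0.32 (adjusted p = 0.0193). The fifth robust fall was that of hoxa4a at -0.58 ± 0.09 (adjusted p = 0.000994). On the posterior side hoxd9a read 8.89, 8.94 and 8.81 in morphants, against 8.28, 8.12 and 8.02 in controls and hoxd10a read 8.99, 9.17 and 9.15 in morphants, against 8.58, 8.58 and 8.85 in controls. Both rose without overlap, hoxd9a by 0.74 ± 0.08 (adjusted p = 6.02e-05) and hoxd10a by 0.43 ± 0.08 (adjusted p = 0.00604), and the third riser was hoxc9a at 0.42 ± 0.08 (adjusted p = 0.00625).

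**Figure D2:**
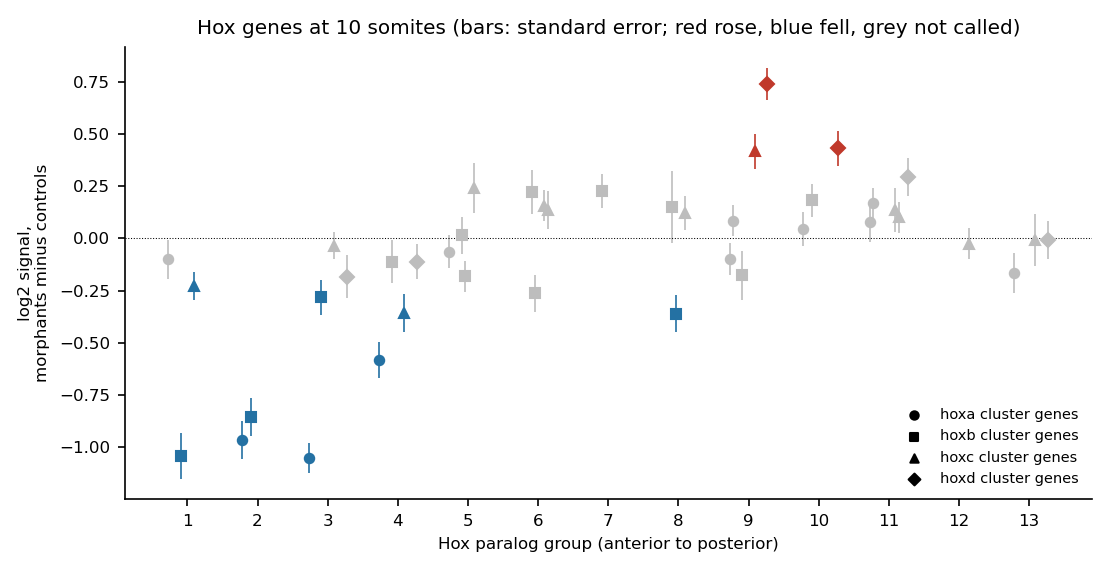
Difference in log2 signal, morphants minus controls, of 42 Hox genes (y axis, bars are standard errors of the limma model, n = 3 arrays per group) against paralog group (x axis). All 13 genes of groups 1 to 4 lie below 0, and the 3 genes that rose, hoxd9a, hoxd10a and hoxc9a, are in groups 9 and 10.

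Of the 13 TALE genes measured, the class of Pbx and its DNA binding partners, 3 rose, both targets among them, and 1 fell. The share called, with the targets counted, was 30.8%, beside 9.51% of named genes. Apart from both targets, meis3, a hindbrain Meis gene, read 9.56, 9.66 and 9.68 in morphants, against 10.35, 10.28 and 10.19 in controls, without overlap and with a difference of -0.64 ± 0.11 (adjusted p = 0.00264). The other riser was pknox1.1, a Prep gene, at 0.33 (adjusted p = 0.00971), a call that was not robust. Iroquois genes, homeobox regulators of neural territories, were called in 5 of 7 cases and in both directions. Robust falls were those of irx7 at -0.55 ± 0.09 (adjusted p = 0.00131) and irx3a at -0.54 ± 0.08 (adjusted p = 0.00089). The irx7 signal was 8.49, 8.26 and 8.46 in morphants, against 9.02, 8.89 and 8.96 in controls, without overlap. The rises of irx4b (0.51, adjusted p = 0.0116) and irx1b (0.29, adjusted p = 0.0126) were not robust.

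The 56 paired-like and other homeobox genes had 16 calls (28.6%), 3 higher and 13 lower, with a median of -0.07. The 4 robust falls with the largest differences were those of retinal and boundary genes. The retinal gene rx1 read 6.85, 6.80 and 6.60 in morphants, against 7.85, 7.82 and 7.61 in controls, and en2b, a gene of the boundary between midbrain and hindbrain, read 7.14, 7.09 and 7.26 in morphants, against 8.09, 8.03 and 8.25 in controls. No arrays overlapped in either gene, and the differences were -1.01 ± 0.09 (adjusted p = 2.14e-05) and -0.96 ± 0.16 (adjusted p = 0.0019). Their paralogs fell too, rx2 by 0.94 ± 0.11 and en2a by 0.80 ± 0.16 (adjusted p = 0.00023 and 0.00785). In the other direction mixl1, a gene of mesendoderm, read 6.89, 7.04 and 7.03 in morphants, against 6.27, 6.03 and 5.95 in controls. It rose by 0.90 ± 0.09 (adjusted p = 3.12e-05), and its control mean lay in the tag range. Of 10 Pax genes 2 fell, pax6a robustly at -0.63 ± 0.08 (adjusted p = 0.000283), and of 8 POU genes 1 rose and 1 fell, the neural gene pou3f2b at -0.47 ± 0.08 (adjusted p = 0.00256).

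Proneural and neural bHLH genes, which commit progenitors to neuronal fates, had calls in 1 direction only. Of 17 measured 7 fell (41.2%), 5 robustly, and none rose, with a median of -0.25. In 4 of the 17 the difference was positive, and in 8 both means lay in the tag range. The proneural gene neurog1 read 8.04, 8.15 and 8.20 in morphants, against 8.97, 8.85 and 8.76 in controls, and ascl1b read 7.17, 7.19 and 7.13 in morphants, against 7.87, 7.92 and 7.77 in controls. The groups did not overlap, and the differences were -0.73 ± 0.08 for neurog1, -0.72 ± 0.11 for ascl1a and -0.69 ± 0.08 for ascl1b (adjusted p = 0.000103, 0.000865 and 0.000139). The neuronal gene bhlhe22 was at -1.12 ± 0.16 (adjusted p = 0.000614), with both means in the tag range. Both means of ptf1a, a gene of pancreas and of inhibitory neurons, were there as well (-0.47 ± 0.07, adjusted p = 0.00138).

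The Her, Hey and Id genes, which hold progenitors back and many of which respond to Notch, had 5 of 19 lower and none higher, with a median of -0.20. With the block 8 fell. The boundary gene her5 read 6.58, 6.33 and 6.59 in morphants, against 7.50, 7.37 and 7.48 in controls, and hey2, a gene of the aorta and ventricle, read 7.03, 6.85 and 6.90 in morphants, against 7.18, 7.25 and 7.37 in controls. Neither gene's groups overlapped, and the differences were -0.95 ± 0.11 (adjusted p = 0.000131) and -0.34 ± 0.07 (adjusted p = 0.00798). Those of the other 3, hey1, her15.2 and heyl, were between -0.35 and -0.26 and were not robust.

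Sox genes were called in 7 of 18 cases (38.9%), 2 higher and 5 lower. The fall of sox9b, a gene of neural crest and ear, was the robust one at -0.44 ± 0.09 (adjusted p = 0.00655), while a second probe set of it gave -0.25 (adjusted p = 0.189). The other 4 were sox1a, sox21a, sox21b and sox3, all genes of the neural plate, at -0.45 to -0.32. The endoderm gene sox32 read 6.71, 6.61 and 6.72 in morphants, against 5.77, 5.84 and 5.70 in controls. It rose without overlap by 0.91 ± 0.11 (adjusted p = 0.000237) from a control mean in the tag range, and sox4a rose by 0.41 ± 0.08 (adjusted p = 0.00933).

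**Figure D3:**
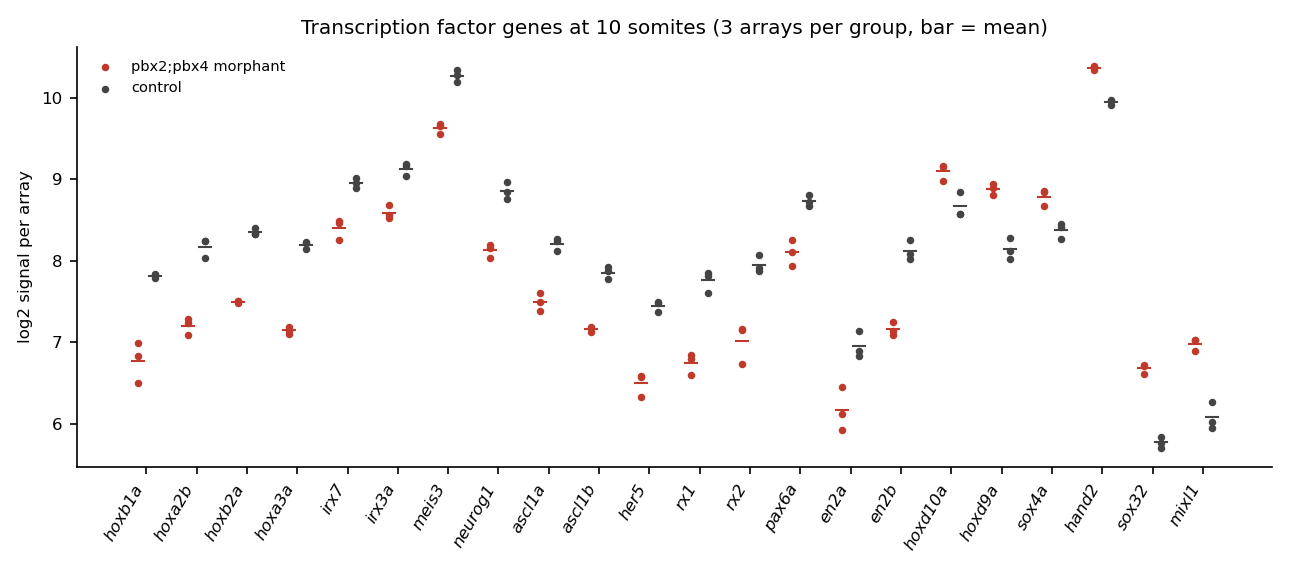
Log2 signal per array (y axis) of transcription factor genes (x axis) in 3 morphant and 3 control arrays, points per array and a bar at each mean. In every gene drawn the 3 morphant points lie apart from the 3 control points, below them from hoxb1a to en2b and above them from hoxd10a to mixl1. Only genes with a robust call are drawn, so their separation is no further support.

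Several factor families had no call in the limma test. These were 10 NK homeobox genes, 10 LIM homeobox genes and 18 Klf and Sp genes. Of these 2, 2 and 5 had an unadjusted p under 0.05, beside 2191 of all 8793 named genes. With the block 1 of the Klf and Sp genes was called, and none of the others. The 24 forkhead genes had a median of 0.14 with 1 higher and 2 lower, none robust, and with the block 4 rose and 2 fell. Of 43 nuclear receptor genes 1 rose and 2 fell, near the background, and with the block 2 rose and 5 fell. Of 14 sine oculis and Eya genes 1 rose and 1 fell (2 and 3 with the block), of 6 Zic genes 1 rose (1 rose and 1 fell with the block) and of 6 GATA genes 2 rose and 1 fell, none robustly and none of the GATA genes with quantile normalization. Of 14 T-box genes 1 was called, tbx15 at -0.59 ± 0.09 (adjusted p = 0.000994), with both means in the tag range and a second probe set at -0.10 (adjusted p = 0.468).

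Tissue lists shared many of these factors, so their counts are not separate evidence. The hindbrain segmentation list, chosen like the others with earlier results known, had the highest share of the tissue lists. Of its 35 genes 21 were called (60%), with 17 lower, 13 of them robustly, and 4 higher, and its median was -0.23. Its lowest member was egr2b, also known as krox20, a zinc finger factor that rhombomeres 3 and 5 need, which read 5.34, 5.01 and 5.20 in morphants, against 9.40, 9.51 and 9.38 in controls. The difference was -4.25 ± 0.11 (adjusted p = 2.47e-11), no array overlapped, and the morphant mean lay in the tag range. Of the other members mafbb, a factor of rhombomeres 5 and 6, fell by 0.40 ± 0.07 (adjusted p = 0.00465). The 4 higher members were pbx4, irx1b, pknox1.1 and crabp2b, a retinoic acid binding protein gene.

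In the midbrain and boundary list 7 of 26 genes fell and 2 rose, 4 and 0 of them robustly (median -0.15). Among the fallen was gbx1, which averaged 7.12 ± 0.21 in morphants and 7.77 ± 0.13 in controls (SD, n = 3), a difference without overlap of -0.65 ± 0.11 (adjusted p = 0.00198). The eye list had 6 of 26 lower and 2 higher, 5 and 0 of them robustly, with a median of -0.05. The eye gene mab21l1 read 6.72, 6.77 and 6.66 in morphants, against 7.16, 7.83 and 8.02 in controls, without overlap, and was at -0.96 ± 0.15 (adjusted p = 0.00171). Among 27 neural progenitor genes 8 fell and 1 rose (median -0.15), but only the falls of dbx1b (-0.54 ± 0.09, morphant mean in the tag range) and gfap, the glial filament gene (-0.54 ± 0.09), were robust. Of 30 genes of neurons 4 fell and none rose, and with the block 6 fell.

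In lists of other tissues fewer genes were called than in the hindbrain list. The lists differed in signal, so their shares are not directly comparable. Both means lay in the tag range in none of the 35 hindbrain and 30 somite clock genes. They did in 10 of 29 heart, 15 of 33 myeloid, 11 of 28 pronephros and 10 of 32 erythroid genes. Of 25 neural crest genes 1 fell, sox9b, and with the block 4 fell and 1 rose. Somite clock and presomitic genes had 6 of 30 lower and none higher with a median of -0.01, 2 of them robust, aldh1a2 and cdx1a (-0.51 ± 0.11, adjusted p = 0.0099), a posterior homeobox gene. Myogenic regulators had 2 of 17 lower. Among them was myog, the factor of muscle differentiation, which read 7.48, 7.34 and 7.09 in morphants, against 8.17, 8.08 and 8.75 in controls. Its groups did not overlap and its difference was -1.03 ± 0.15 (adjusted p = 0.000926). Muscle structure genes had 2 of 45 higher and 4 lower, and 4 and 6 with the block. Robust among these were tnnt2a, the heart troponin T gene (-0.64 ± 0.12), and srl, a gene of the sarcoplasmic reticulum (-0.50 ± 0.09), both with morphant means in the tag range. Of 29 heart genes 2 rose and 3 fell, 1 and 2 of them robustly, with a median of -0.05. The robust riser was hand2, a factor of heart and fin fields, at 0.42 ± 0.07 (adjusted p = 0.00206).

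Blood, gut and surface lists were mixed. Of 33 myeloid genes 1 rose and 2 fell (9.09% called, beside 9.51% of named genes), and the 2 falls were robust. The leukocyte actin bundling gene lcp1 read 5.97, 6.41 and 6.41 in morphants, against 8.87, 9.13 and 8.79 in controls, a difference without overlap of -2.67 ± 0.18 (adjusted p = 8.39e-07), and pycard, an inflammasome adaptor, was at -0.58 ± 0.11 (adjusted p = 0.006). Endoderm and pancreas genes had 4 of 40 higher and 3 lower, with 7 and 5 under the block. In the list of yolk layer and plasma protein genes 2 of 39 rose and 3 fell, and 3 and 7 with the block. The gene ambp of this list, a plasma protease inhibitor precursor, read 6.75, 6.87 and 6.99 in morphants, against 8.11, 7.92 and 8.12 in controls, without overlap and with a difference of -1.18 ± 0.10 (adjusted p = 9.09e-06). Epidermal genes had 2 of 51 higher and 2 lower, and with the block 4 and 6. None of 12 hatching gland genes was called in the limma test (3 at an unadjusted p under 0.05), and 1 fell with the block. In each of the erythroid, vessel, notochord and germ cell lists 4 genes or fewer were called and none robustly, with 5 of the 21 notochord genes and 3 of the 21 vessel genes called under the block. Of 28 pronephros genes 1 rose and 3 fell, aqp3a (-0.89 ± 0.09), a water channel gene, and cldna (-0.71 ± 0.11) robustly and with both means in the tag range.

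Of the signalling pathways, retinoic acid genes had the highest share, 7 of 20 (35.0%), 2 higher and 5 lower. The falls were all robust and stood at several steps of the pathway. Rbp4, which carries retinol, read 9.97, 9.61 and 9.43 in morphants, against 10.83, 10.46 and 10.60 in controls, aldh1a2, which makes retinoic acid, read 9.06, 8.89 and 8.86 in morphants, against 9.60, 9.47 and 9.39 in controls, and cyp26c1, which degrades it, read 7.33, 6.93 and 7.23 in morphants, against 8.22, 8.06 and 8.16 in controls. No groups overlapped, and the differences were -0.96 ± 0.13, -0.55 ± 0.08 and -0.99 ± 0.14 (adjusted p = 0.000519, 0.000644 and 0.000772). The second degrading enzyme gene cyp26b1 was at -1.33 ± 0.08 (adjusted p = 4.84e-07), and its other probe sets gave -2.46, -1.0 and -0.42, the last not called (adjusted p = 0.0531). The fifth was dhrs3a, whose enzyme returns retinaldehyde to retinol, at -0.49 ± 0.10 (adjusted p = 0.00606). Going the other way stra6, the retinol uptake receptor gene, read 9.12, 9.11 and 9.02 in morphants, against 8.35, 8.37 and 8.68 in controls. It rose without overlap by 0.62 ± 0.10 (adjusted p = 0.00212).

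The other pathways had fewer calls. Of 41 Wnt genes 2 rose and 4 fell. The secreted Wnt antagonist genes dkk1b and dkk2 fell by 0.53 ± 0.10 and 0.53 ± 0.07 (adjusted p = 0.00452 and 0.000583), and rspo1, a Wnt enhancer, rose by 0.44 ± 0.08 (adjusted p = 0.00323). Both means of dkk2 and rspo1 were in the tag range. Of 49 Bmp and TGF-beta genes 2 rose and 3 fell (10.2% called, close to the 9.51% of named genes). The feedback inhibitor gene szl read 7.75, 7.46 and 7.72 in morphants, against 8.61, 8.45 and 8.22 in controls, and the ligand gene bmp3 read 10.09, 9.83 and 10.07 in morphants, against 9.37, 9.06 and 9.41 in controls. Both were without overlap, szl at -0.78 ± 0.12 (adjusted p = 0.0014) and bmp3 at 0.72 ± 0.10 (adjusted p = 0.000555). Of 20 Notch genes 1 rose and 2 fell, among them the ligand gene dla at -0.52 ± 0.10 (adjusted p = 0.00612). Eph and ephrin genes, which sort cells at rhombomere borders, had 3 of 17 lower, with efna3b robustly at -0.45 ± 0.07 (adjusted p = 0.00155), and 5 lower with the block. Of 27 Fgf genes 3 fell (11.1% called), none robustly. Of 15 Hedgehog genes 1 rose (6.67% called), and with the block 2 rose and 1 fell. The riser was stk36, a kinase gene, at 0.45 ± 0.07 (adjusted p = 0.00148), with its control mean in the tag range. None of 23 semaphorin, plexin, slit and netrin genes was called in the limma test or with the block, and 2 had an unadjusted p under 0.05.

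Many DNA replication genes fell. Of 52 measured 21 fell (40.4%), 11 robustly, and none rose, with a median of -0.19 beside 0.00 over all named genes. Without 1 array the count of falls was 14 to 18, and with the block it was 23. Several steps at the replication fork were represented. The 6 called genes of the mcm family, which form the replicative helicase, fell by similar amounts, mcm7, mcm4, mcm6 and mcm5 by 0.43 ± 0.08, 0.41 ± 0.06, 0.41 ± 0.08 and 0.39 ± 0.07, and mcm3 and mcm2 by 0.33 and 0.31. The clamp gene pcna fell by 0.34 ± 0.07, the nuclease gene fen1 by 0.36 ± 0.07 and the ligase gene lig1 by 0.34, and the clamp loader gene rfc4 by 0.37 ± 0.07. Another clamp loader gene, rfc1, stood lower than the rest. It read 8.47, 8.30 and 8.34 in morphants, against 9.22, 9.24 and 9.23 in controls, without overlap, a difference of -0.86 ± 0.08 (adjusted p = 1.13e-05). The mcm4 gene read 10.56, 10.57 and 10.59 in morphants, against 10.99, 10.98 and 10.97 in controls (adjusted p = 0.000996), again without overlap.

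Mitosis genes had 13 of 65 lower (20%) and none higher, 6 robustly, also with a median of -0.19. With the block 21 fell and 1 rose, and without 1 array 6 to 11 fell. The lowest values were those of racgap1 and kif23, which encode the partners of the centralspindlin complex of cytokinesis. The racgap1 gene read 8.82, 8.58 and 8.58 in morphants, against 9.52, 9.39 and 9.25 in controls and kif23 read 9.79, 9.69 and 9.77 in morphants, against 10.24, 10.25 and 10.20 in controls. Neither overlapped, and they fell by 0.72 ± 0.10 (adjusted p = 0.000607) and 0.48 ± 0.07 (adjusted p = 0.000981), while the other kif23 probe set was at -0.16 and not called (adjusted p = 0.399). Further robust falls were those of cdca3 (-0.48 ± 0.10), the proliferation marker mki67 (-0.38 ± 0.08), the chromosomal passenger gene incenp (-0.38 ± 0.07) and the kinetochore gene nuf2 (-0.34 ± 0.06). The other probe sets of mki67, at -0.36 and -0.13, were not called (adjusted p = 0.177 and 0.515). Of 8 histone genes 1 fell and 1 rose. The riser was the linker histone gene h1-10, which read 7.62, 7.51 and 7.57 in morphants, against 6.74, 6.98 and 6.70 in controls and was up without overlap by 0.76 ± 0.13 (adjusted p = 0.00212).

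**Figure D4:**
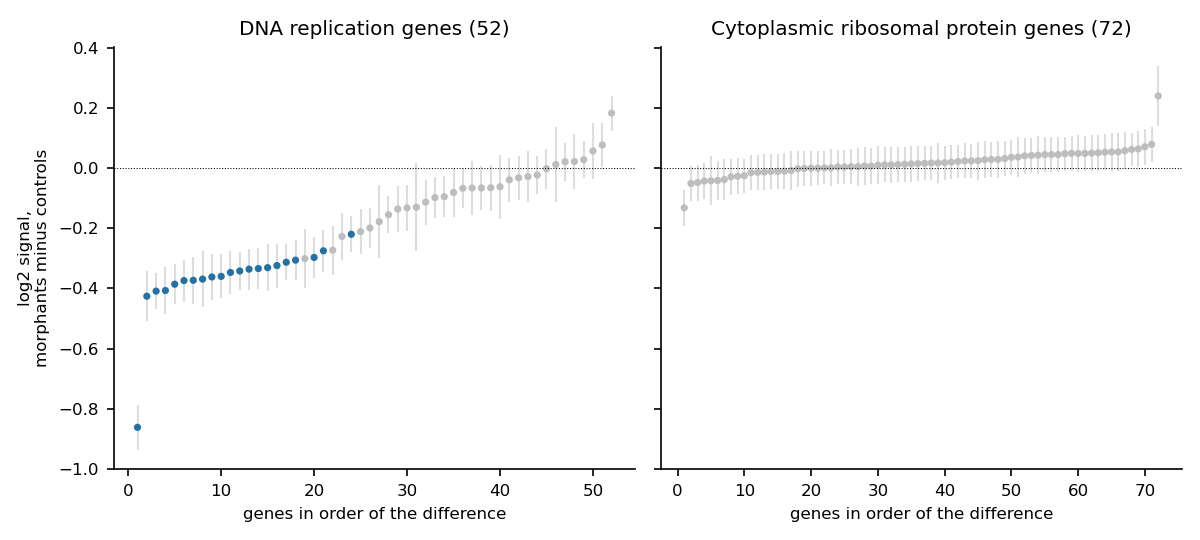
Difference in log2 signal, morphants minus controls (y axis, bars are standard errors, n = 3 arrays per group), of the genes of each named list in order of the difference (x axis). Of 52 replication genes 21 fell (blue) and none rose, while of 72 cytoplasmic ribosomal protein genes none was called.

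In the same arrays genes of p53 signalling and apoptosis had more rises than falls. Of 37 measured 7 rose (18.9%, against 4.98% of named genes) and 2 fell, 2 of the rises robustly. The list median was 0.03, and without 1 array 3 to 5 rose. The caspase gene casp8 read 8.16, 8.15 and 8.29 in morphants, against 7.65, 7.48 and 7.16 in controls, and the p53 target phlda3 read 9.07, 9.08 and 9.25 in morphants, against 8.64, 8.73 and 8.31 in controls. Their groups did not overlap, and the rises were 0.77 ± 0.11 (adjusted p = 0.000644) and 0.58 ± 0.10 (adjusted p = 0.00384). The others that rose were casp9, mdm2, ccng1, jun and plk3, at 0.43 to 0.34. Their part in the lower cell division genes was not tested.

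Of 32 serine, folate and nucleotide synthesis genes, which supply nucleotides and methyl groups, 9 fell (28.1%, against 4.53% of named genes), 3 robustly, and 1 rose. Without 1 array 3 to 7 fell. The folate enzyme gene mthfd1b read 9.62, 9.45 and 9.38 in morphants, against 10.90, 10.82 and 10.74 in controls. The groups did not overlap, and the difference was -1.34 ± 0.07 (adjusted p = 1.91e-07). The serine synthesis gene psat1 was at -0.48 ± 0.08 (adjusted p = 0.00198) and mat2aa, which makes the methyl donor, at -0.44 ± 0.08 (adjusted p = 0.00469). Among tubulin genes and genes of related symbol 5 of 16 fell and none rose (median -0.21). The robust ones were tuba8l3 (-0.77 ± 0.13, adjusted p = 0.0021) and tubgcp2 (-0.52 ± 0.08, adjusted p = 0.00125), which encodes a subunit of the nucleating gamma-tubulin complex, not a tubulin.

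Protein synthesis genes had few calls. None of 72 cytoplasmic ribosomal protein genes was called in the limma test or with the block, 2 had an unadjusted p under 0.05, and their differences ran from -0.13 to 0.24 with a median of 0.02. Ribosome biogenesis genes had 5 of 79 lower (6.33%), with pwp2h and nol6 of the small subunit processome robustly at -0.68 ± 0.08 and -0.37 ± 0.07 (adjusted p = 0.000157 and 0.00629). Mitochondrial ribosomal protein genes had 2 of 59 higher and 2 lower, with mrpl53 at 0.42 ± 0.08 and mrpl24 at -0.57 ± 0.07. Of 64 initiation and elongation factor genes 5 rose and 2 fell (10.9% called, beside 9.51% of named genes). The 2 falls were those of subunit genes of 1 complex, eEF1. The eef1g gene read 13.03, 13.06 and 13.06 in morphants, against 13.55, 13.45 and 13.45 in controls. The eef1b2 gene read 12.45, 12.48 and 12.50 in morphants, against 12.90, 12.80 and 12.97 in controls. Without overlap they were at -0.43 ± 0.06 (adjusted p = 0.00079) and -0.42 ± 0.06 (adjusted p = 0.00119). The cap binding gene eif4e1c rose by 0.39 ± 0.07 (adjusted p = 0.00237), and a second probe set of it gave 0.19 (adjusted p = 0.0941).

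Splicing factor genes had 6 of 108 higher and 5 lower, with 2 and 4 robust. The share called, 10.2%, was close to the 9.51% of named genes. The RNA helicase gene ddx39b read 10.18, 10.17 and 10.08 in morphants, against 9.47, 9.27 and 9.31 in controls, and the RNA binding protein gene khdrbs1b read 10.08, 10.05 and 10.03 in morphants, against 11.06, 11.01 and 10.91 in controls. Neither gene's groups overlapped, with ddx39b at 0.79 ± 0.09 (adjusted p = 8.87e-05) and khdrbs1b at -0.94 ± 0.07 (adjusted p = 1.79e-06). The core spliceosome gene snrpd1 was at 0.51 ± 0.07 and srsf3b, of the SR family, at -0.65 ± 0.11 (adjusted p = 0.000354 and 0.0021).

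Protein quality genes were near the background. Proteasome genes had 1 of 52 higher and 3 lower. Of these psma4, a core particle subunit gene, was robust at -0.40 ± 0.07 (adjusted p = 0.00321), and psmc3ip and psme3ip1 only share the symbol. Heat shock and chaperonin genes had 1 of 66 higher and 3 lower, none robustly, and with the block 7 rose and 3 fell. Of 32 endoplasmic reticulum chaperone genes 1 rose and 1 fell, and of 23 aminoacyl-tRNA synthetase genes 1 rose, none robustly. Among 36 genes of the integrated stress response, 3 rose and 2 fell. Its transcription factor gene atf4a read 12.27, 11.96 and 12.21 in morphants, against 10.88, 10.67 and 10.77 in controls. It was higher without overlap by 1.38 ± 0.10 (adjusted p = 2.41e-06). Among serine and folate genes that are targets of ATF4 in mammals, psat1 and phgdh fell (-0.48 and -0.37) and shmt2 rose (0.28). The last 2 calls were not robust.

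Metabolism and transport had calls in both directions. Solute carrier genes had 8 of 132 higher and 4 lower (9.09%, close to the 9.51% of named genes), and 10 and 7 with the block. The lactate transporter gene slc16a3b read 7.06, 7.41 and 7.65 in morphants, against 5.52, 5.88 and 5.73 in controls. Its rise was 1.66 ± 0.21 without overlap (adjusted p = 0.000341), with the control mean in the tag range. The zinc transporter gene slc39a3 rose by 0.56 ± 0.08 (adjusted p = 0.00056), and the anion exchanger gene slc4a2a by 0.48 ± 0.09 (adjusted p = 0.00602). The other slc4a2a probe sets were at 0.24, not called (adjusted p = 0.158), and 0.35. The copper transporter gene slc31a1 rose by 0.42 ± 0.09, with a second probe set at 0.40 (adjusted p = 0.149). Lower were slc38a5b, which carries glutamine, at -0.48 ± 0.10 and slc27a6, of the fatty acid carriers, at -0.43 ± 0.07. Of 31 glycolysis genes the other riser was pgam1b (0.42 ± 0.08, adjusted p = 0.00544), and none fell, while with the block 3 rose and 2 fell. Sterol synthesis genes had 2 of 20 higher, with the squalene synthase gene fdft1 at 0.49 ± 0.09 (adjusted p = 0.0058). Respiratory chain genes had 4 of 92 higher and 5 lower. The robust ones among these were cox10, a heme enzyme gene (-0.53 ± 0.08), and sdha of complex II (-0.38 ± 0.07).

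Vesicle traffic genes had 7 of 138 higher (5.07%, close to the 4.98% of named genes) and 1 lower, and 3 to 7 higher without 1 array. With the block 14 rose and 4 fell. The median was 0.05. The cargo receptor gene tmed4 read 8.59, 8.79 and 8.68 in morphants, against 7.97, 8.08 and 8.24 in controls. It rose without overlap by 0.59 ± 0.11 (adjusted p = 0.00388). The Rab gene rab1bb rose by 0.90 ± 0.11, with both means in the tag range, and the adaptor gene ap3m2 by 0.34 ± 0.07 (adjusted p = 0.000237 and 0.007). Of the adhesion families, claudin and connexin genes had 4 of 37 lower and none higher (10.8% called, beside 9.51% of named genes). The connexin 43 gene gja1b was at -0.77 ± 0.15 (adjusted p = 0.00502), with its morphant mean in the tag range, and the tight junction gene cldn3c at -0.58 ± 0.11 (adjusted p = 0.00637). Of 19 cadherin genes 1 was called, pcdh1b, which read 6.93, 7.02 and 6.93 in morphants, against 5.73, 5.94 and 5.92 in controls. It rose without overlap by 1.10 ± 0.07 (adjusted p = 6.6e-07) with the control mean in the tag range. Of 28 collagen and laminin genes 1 fell, of 16 keratin genes 1 fell and of 9 integrin and fibronectin genes 1 rose. With the block the cadherin, collagen and integrin lists had 2 calls each. The keratin gene krt91 was at -0.44 ± 0.10 (adjusted p = 0.0121), with a second probe set at -0.34 (adjusted p = 0.0927). Of 15 cathepsin and hatching enzyme genes 1 rose, the lysosomal gene ctsz by 0.39 ± 0.07 (adjusted p = 0.00467), and 2 with the block.

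Grouping by symbol alone, with no choice of function, gave 140 families of at least 8 genes sharing the letters before the first digit. The lowest medians were those of mcm at -0.36 (6 of 8 lower), her at -0.22, tuba at -0.21, hoxb at -0.18 and nme, the nucleoside diphosphate kinases, at -0.18. The highest were sec at 0.14, a secretory coat and translocon family with 2 of 16 higher, and pik, pdcd and hspa at 0.12. Of these pik had 2 of 9 higher, pdcd 1 of 10, and none of 10 hspa genes was called. Tied at 0.11 were hoxc (1 of 12 higher, 2 lower), ndufb (none of 8 called) and snx, the sorting nexins (4 of 20 higher).

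Zebrafish carry many duplicated genes whose symbols end in a and b, but such symbols also name different subunits or family members, as sdha and sdhb or hnf4a and hnf4b do. Both genes were measured for 664 pairs of symbols that differ only in a final a or b, and duplicates were not told from other pairs. In 546 pairs neither gene was called, in 106 only 1 was, and in 12 both were, 9 in the same direction and 3 in opposite ones. The difference between the responses of the genes of a pair was tested directly, and 60 pairs (9.04%) responded unequally, 22 robustly. With the block 132 pairs did, and the count was 32, 35, 36 and 37 without morphant array 3, control array 2, control array 1 or morphant array 2.

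The largest measured difference was that of egr2a (-0.71 ± 0.10) and egr2b (-4.25 ± 0.11), but both morphant means were in the tag range. The control means were 6.47 for egr2a and 9.43 for egr2b, so egr2a had little room to fall, and the unequal sizes do not show unequal responses. Next came atf4a, with the rise given above, and atf4b, which read 9.41, 9.22 and 9.17 in morphants, against 9.40, 9.38 and 9.44 in controls. Its groups overlapped, and atf4b was not called at -0.14 ± 0.08 (adjusted p = 0.358), which set the genes 1.52 ± 0.12 apart (adjusted p = 4.62e-07). For hnf4a and hnf4b, nuclear receptors of liver and gut, the differences were 0.33 ± 0.10 and -0.82 ± 0.19, 1.15 ± 0.21 apart (adjusted p = 0.00272). Of these genes hnf4a was not called (adjusted p = 0.0592), and hnf4b, whose morphant mean was in the tag range, lost its call without morphant array 1 (0.0702), morphant array 3 (0.0587) or control array 2 (0.0742).

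The kinase inhibitor gene inka1a fell by 0.97 ± 0.11 while inka1b was at 0.14 ± 0.08 and not called (adjusted p of the difference 0.000151). Against the fall of khdrbs1b, khdrbs1a was at 0.04 ± 0.08 with overlapping arrays (adjusted p of the difference 8.66e-06). Against the rise of rab1bb, rab1ba was at 0.12 ± 0.11, again with overlap (adjusted p of the difference 0.000232). The 3 pairs called in opposite directions, named after their values were seen, were irx1a (-0.29 ± 0.08) and irx1b (0.29 ± 0.06), arhgap12a (0.34 ± 0.09) and arhgap12b (-0.23 ± 0.07), and adipor1a (0.40 ± 0.12) and adipor1b (-0.26 ± 0.08). None of these 6 single calls was robust, and with another scaling those of arhgap12a, arhgap12b and adipor1a were lost (adjusted p = 0.0517, 0.0521 and 0.0634 to 0.0782).

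**Figure D5:**
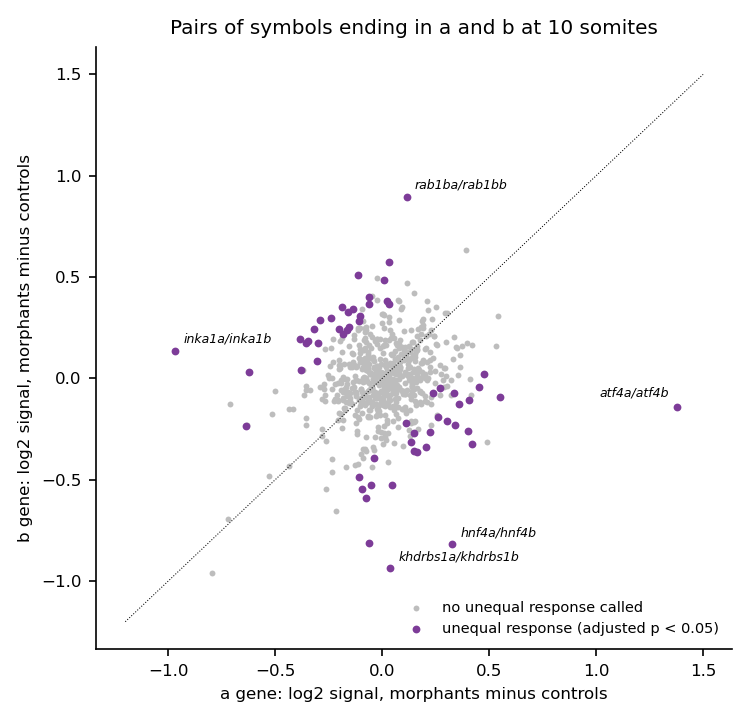
Difference in log2 signal, morphants minus controls, of the a gene (x axis) and the b gene (y axis) of pairs of symbols, 1 point per pair, with unequal responses (limma, adjusted p under 0.05) in purple. Points far from the dotted line of equal response include atf4a/atf4b at 1.38 and -0.14; egr2a/egr2b, at -0.71 and -4.25, lies outside the axes and is not drawn.

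Calls shared with the 18 somite stage had the same sign in nearly all cases. Of the 1267 probe sets called at 10 somites 702 were also called at 18 somites, 699 of them with the same sign. Of all 15502 probe sets 1935 were called at 18 somites (12.5%). The sign was the same at both stages in 10745 of the 15502, called or not. The arrays of the stages share no sample, but 1 fit gave both effects the same estimate of the spread, so calls at the stages are not independent. The stages also stood on different scales, so only effects, not signals, were compared between them. When the effects of both stages were tested against each other, 5 of 15502 probe sets (0.0323%) differed, 3 of them among those called at 10 somites. With the block 52 did. No list held more than 1 such gene. The absence of a call there does not show equal effects. The szl effect was -0.78 at 10 somites and 0.16 at 18 somites. That of casp8 was 0.77 and -0.02, and neither gene was called as different.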

How the data were processed

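RNA was measured on Affymetrix zebrafish arrays. The deposited values are log2 signals per probe set that the authors made with RMA and the affy package, per the submitters' processing notes, which give no version; which arrays were normalized together, and scan or slide batches, are not given in the sources used here. Probe sets were named from the platform annotation, 10795 with 1 symbol, 135 with several and 4572 with none, and gene IDs of 10711 matched the RefSeq gene table.

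A mean per group was fitted over all 12 arrays in limma (version 3.58.1, R 4.3.3; lmFit, eBayes; 8 residual degrees of freedom). P-values are two-sided and adjusted by Benjamini-Hochberg over 15502 probe sets, or over 664 pairs for the difference between the genes of a pair within an array.

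The members and the 73 lists were chosen with earlier results of these data known. In each list the text names up to 4 robust genes with the largest differences in the direction with more calls and up to 2 in the other, and the 6 robust pairs with the largest difference; every further gene named was chosen after its values were seen. A robust call is one made with all arrays and without each 10 somite array in turn.

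Deviations from the group means correlated between the same-numbered morphant and control arrays at r = 0.548, 0.214 and 0.246 over probe sets. Morphant array 2 with control array 3 gave 0.231, and the other unlike-numbered arrays -0.427 to -0.017, so the pairing of arrays 2 and 3 is less sure. The replicate number was taken to pair the samples, and counts with it as a block are given where they differ by over 1.5 times. Other alternatives were median centring, quantile normalization, a filter on dim probe sets, a trended robust prior, array weights, the 10 somite arrays alone and averaging the probe sets of a gene.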

Additional observations from a re-analysis of the deposited data

Results flagged for a closer look

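The effect of the knockdown differed between the stages, tested as an interaction in the limma fit, for 5 probe sets (difference of the 18 somite effect minus the 10 somite effect). The heart light chain gene cmlc1 differed by -1.644 ± 0.164 (adjusted p = 0.00136), with an effect of -1.85 at 18 somites and -0.21 at 10 somites, where both groups' signals lay in the tag range. The Wnt enhancer gene rspo1 differed by -0.779 ± 0.11 (adjusted p = 0.0204), with -0.34 at 18 somites and 0.44 at 10 somites. The gene zgc:92606 differed by 0.903 ± 0.127 (adjusted p = 0.0204), with 0.80 at 18 somites and -0.10 at 10 somites. A probe set with no gene symbol differed by -1.034 ± 0.146 (adjusted p = 0.0204), with -0.03 at 18 somites and 1.00 at 10 somites. The LIM domain gene crip2 differed by -0.845 ± 0.127 (adjusted p = 0.033), with -0.26 at 18 somites and 0.59 at 10 somites. No cause was tested.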

How the results depend on the processing

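The count of called probe sets, 1267, was 2040 with the replicate block within a stage and 2447 with array weights, and 643 to 1183 without 1 array. It was 1241 (620 higher, 621 lower) with median centring, 1145 with quantile normalization, 1282 in the brightest 60%, 1359 with a trended prior and 1099 with the 10 somite arrays alone. The 60 unequal pairs became 132 with the block, 115 with array weights and 32 to 63 without 1 array. The 5 probe sets that differed between stages became 52 with the block, 14 with median centring, 11 with quantile normalization, 3 in the brightest 60%, 33 with a trended prior, 32 with array weights and 1 to 20 without 1 array. The cause was not tested.

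Of 120 genes, the targets, those the rule picked and those of the named pairs, 119 kept their side of the threshold with the block and 1, hnf4a, gained a call, and 118 kept it with median centring and with quantile normalization. Most were picked because their call held without each array, so leaving out arrays was no test of them. In 2 genes that were not called the sign turned: khdrbs1a was at -0.019 with the mean of its probe sets, and rab1ba at -0.018 without control replicate 1 (up to 0.218 without control replicate 3). Of the 73 list counts 49 stayed within 1.5 times of the main count with the block, 72 with median centring and 68 with quantile normalization, and 30 to 57 without 1 array. With 3 arrays per group, signals in the tag range and small differences are the least certain.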
